A study of Mus musculus with 8 samples.

Results

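A set of 10 genes that let a cell detect microbes were followed in sorted Paneth cells, which sit at the bottom of small intestinal crypts and secrete antimicrobial peptides. The set held the cytosolic sensors Nod1, Nod2 and Nlrp6, the Toll-like receptors Tlr2, Tlr3, Tlr4 and Tlr5, and the signalling proteins Ripk2, Myd88 and Ticam1. Members were found by their Ensembl IDs, and all 10 were among the 55414 rows of the count table. Of the 10, 9 passed the filter on low counts and were among the 11929 genes tested. Tlr4 was too low to test.

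Paneth cells had been sorted by FACS from dissociated small intestine of individual mice, and poly(A) RNA was sequenced with a stranded kit. The study describes these data as a profile of purified cells once mature Paneth cells had been depleted. The TG group (4 libraries, genotype DT TG) came from transgenic mice in which Paneth cells make diphtheria toxin, and the WT group (4 libraries) from wild type mice. Diphtheria toxin stops protein synthesis by inactivating an elongation factor. The study names C57BL/6J mice for its sorts, while the sources used here do not give the promoter that drives the toxin or the age of the mice.

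Toll-like receptors are membrane proteins that bind microbial molecules. TLR2 binds bacterial lipoproteins, TLR4 binds lipopolysaccharide and TLR5 binds flagellin, while TLR3 sits in endosomes and binds double-stranded RNA. Their signals pass through 2 adaptors, MyD88 and TRIF, the latter encoded by Ticam1. TLR3 uses TRIF only, TLR2 and TLR5 use MyD88, and TLR4 uses both. NOD1 and NOD2 bind fragments of peptidoglycan in the cytosol and signal through the kinase RIPK2, and NLRP6 is a sensor of the inflammasome family found mainly in intestinal epithelium. In Paneth cells NOD2 and MyD88 are known for their part in antimicrobial defence.

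The libraries held 13107397 to 16218434 counts. Counts of 4 Y-linked genes were 0 in replicates 1 and 2 and 897 to 1564 in replicates 3 and 4, in TG as in WT, and values within each kind of library are given for the results they bear on most. The 10 Paneth markers listed, led by Lyz1 and Defa24, summed to 371802 to 456301 CPM in TG and 352818 to 532045 CPM in WT. Of these 10, 3 fell in TG, against 9.65% of all genes tested, and 7 were not called. Mptx2 had a log2 fold change of -1.35 (edgeR adjusted p 0.00116), Mmp7, the protease that activates mouse alpha-defensins, -0.59 (0.0179) and Ang4, an antimicrobial ribonuclease, -0.57 (0.0370). Their part in the members' changes was not tested. All p-values measure the spread between these 8 libraries. In such bulk samples, fewer cells of a type and less RNA per cell cannot be told apart.

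The level of each member was first compared per length, as CPM (counts scaled to a total of 1000000 per library) per kb of merged exon, over all 8 libraries. Nlrp6 had the highest level of the 10, with 14.1 ± 4.17 CPM per kb (SD, n = 8). Ticam1 followed with 7.68 ± 1.79 and Myd88 with 4.26 ± 0.450 CPM per kb. Both were expressed above every Toll-like receptor measured, in all 8 libraries. Tlr3, Nod1 and Tlr5 formed a middle group with mean levels of 2.14, 2.00 and 1.90 CPM per kb. Their ranges overlapped. Tlr3 was above Nod1 in 6 of 8 libraries, so that these neighbours were not separated beyond their spread. The place of Tlr5 went with the group, since it was above both in all 4 TG libraries and below both in all 4 WT libraries. Tlr2 and Ripk2 were lower, with 0.440 and 0.418 CPM per kb. Their order went with the group too, with Ripk2 above Tlr2 in all 4 TG libraries and below it in all 4 WT libraries. With the longest transcript in place of merged exons, the mean of Tlr5 came before that of Nod1 and the mean of Ripk2 before that of Tlr2. Nod2 had 0.207 ± 0.0793 CPM per kb and was below Ripk2 in all 8 libraries. Tlr4 came last with 0.0414 CPM per kb.

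**Figure D1:**
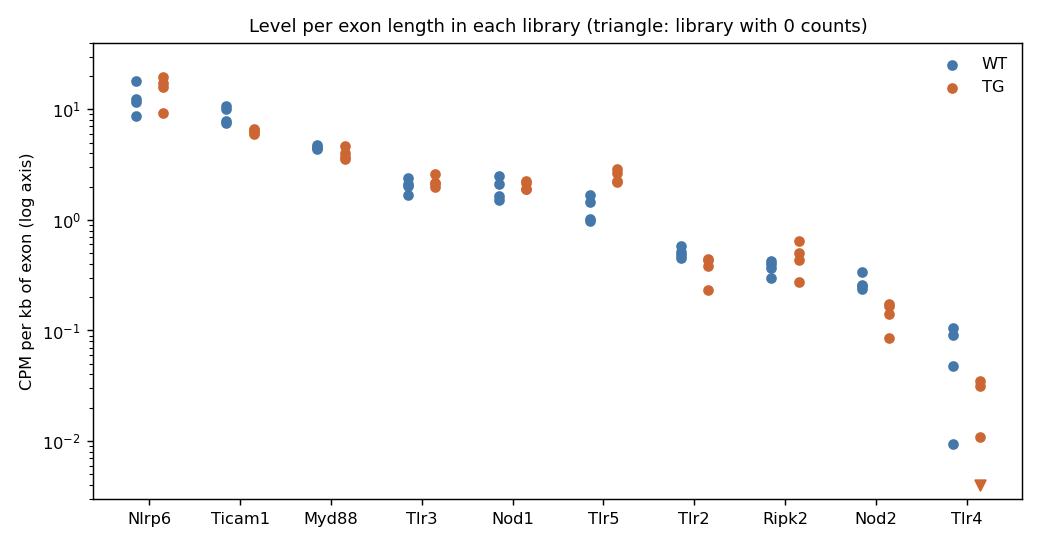
Level of each member in CPM per kb of merged exon (log axis), 1 point per library, blue for WT and orange for TG, with a triangle for the library with 0 counts. Levels run from a mean of 14.1 CPM per kb for Nlrp6 to 0.0414 for Tlr4.

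The comparison of TG with WT then asked which of these genes differ between Paneth cells of mice with and without the toxin. Of the 9 members tested, 3 were called by edgeR at an adjusted p below 0.05, with Tlr5 higher and Ticam1 and Nod2 lower in TG. Nod2 was lost with no filter on low counts, which left 2 members called. Over all 11929 genes tested, 17.9% were called, 8.26% as higher and 9.65% as lower. TG and WT libraries were separate, with no overlap in CPM, for 4 members (Tlr5, Ticam1, Nod2 and Tlr2), and for 22.0% of all genes tested. All CPM values from here on are scaled by TMM factors, and all fold changes are TG over WT.

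**Figure D2:**
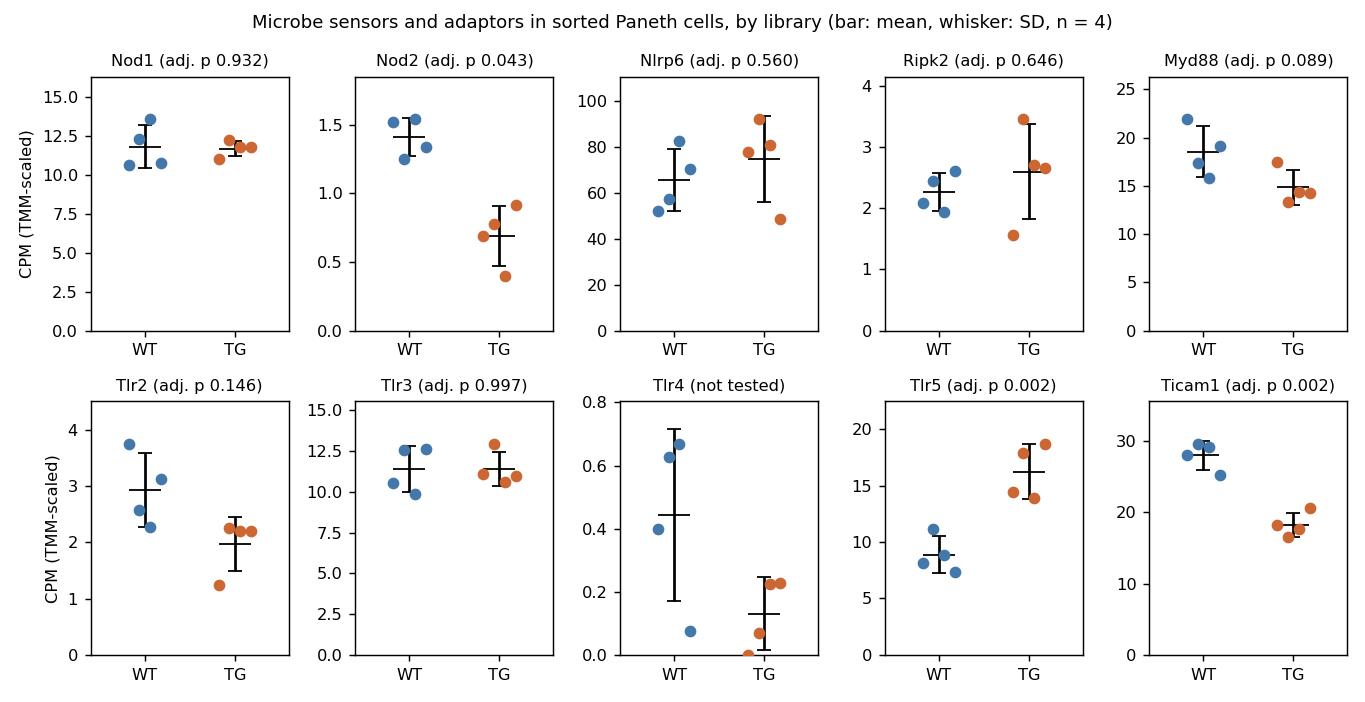
CPM of each member in every library, 4 WT (blue) and 4 TG (orange), with the mean and SD, on axes that start at 0 and differ between panels. Tlr5 was higher in every TG library than in any WT library, and Ticam1, Nod2 and Tlr2 were lower in every TG library than in any WT library.

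Sequences upstream of the 3 called members are shown because these are the members called between the groups. Each is the stretch of 200 bases that ends 50 bases before the RefSeq start of the gene, taken from RefSeq (table build GRCm38.p6), matched once to the chromosome in GRCm39 and printed 5′ to 3′ on the strand of the gene. Capitals mark the GC box GGGCGG or its complement CCGCCC.
Tlr5, chr1:182782103-182782302, plus strand: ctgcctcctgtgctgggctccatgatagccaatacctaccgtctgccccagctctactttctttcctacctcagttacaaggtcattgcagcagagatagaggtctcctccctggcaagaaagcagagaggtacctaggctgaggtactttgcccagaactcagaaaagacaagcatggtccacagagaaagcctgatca
Ticam1, chr17:56583818-56584017, minus strand: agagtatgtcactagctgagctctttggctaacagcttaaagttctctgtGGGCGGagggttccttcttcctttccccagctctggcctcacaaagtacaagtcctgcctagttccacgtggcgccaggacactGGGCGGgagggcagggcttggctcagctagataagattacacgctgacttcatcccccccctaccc
Nod2, chr8:89373725-89373924, plus strand: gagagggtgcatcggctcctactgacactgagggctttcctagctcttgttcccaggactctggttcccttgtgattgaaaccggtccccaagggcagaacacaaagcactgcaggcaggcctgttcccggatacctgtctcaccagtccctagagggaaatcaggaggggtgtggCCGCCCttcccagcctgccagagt

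The GC box was searched on both strands and was found 2 times upstream of Ticam1 and 1 time upstream of Nod2, and it was not found in the window of Tlr5. Over the 32851 RefSeq starts in that table, 24.6% held it in the same window. The RefSeq table held 9 starts of 8 members (2 for Nod1), and 3 of these 9 held a GC box (those of Ticam1, Nod2 and Tlr2). The TATA box TATAAA was found upstream of Myd88 (9.14% of all starts), the AP-1 motif TGANTCA upstream of Nlrp6 (5.57%), and the NF-kB motif upstream of Tlr2 and Tlr3 (3.13%). These matches describe letters in a window only.

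Among the Toll-like receptors, Tlr5, the flagellin receptor, rose in TG. Tlr5 (ENSMUSG00000079164, chromosome 1, 182782311 to 182805500, plus strand, GRCm39) had 14.5, 17.9, 13.9 and 18.7 CPM in TG replicates 1 to 4 and 8.15, 11.1, 8.83 and 7.37 CPM in WT replicates 1 to 4. The lowest TG library lay above the highest WT library. The mean was 16.2 ± 2.41 CPM in TG and 8.87 ± 1.63 CPM in WT (SD, n = 4 each), on 99 to 254 counts per library. The fold change was 1.82 (95% interval 1.46 to 2.26), or 0.86 ± 0.15 (SE) on the log2 scale, with an edgeR adjusted p of 0.00207. The call held in all 18 alternative fits, including the libraries without Y-linked counts (log2 fold change 0.74, edgeR adjusted p 0.0445) and those with them (1.00, adjusted p 0.0393).

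Enterocyte markers also moved between these groups. Of 14 listed, 13 were tested and 7 rose in TG, with Apob (a lipoprotein component) and Alpi (intestinal alkaline phosphatase) among them, against 8.26% of all genes called higher. Their summed level was 643 to 794 CPM in TG and 435 to 544 CPM in WT. Of 6 stem cell markers, Axin2 and Slc12a2 rose (log2 fold changes 0.52 and 0.41) and Smoc2 fell (-0.35), and of 5 tuft cell markers tested Ptgs1 rose (1.74). The part of these markers in the rise of Tlr5 was not tested.

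Tlr2, Tlr3 and Tlr4 were not called. Tlr2, the lipoprotein receptor (ENSMUSG00000027995, chromosome 3, 83743576 to 83749074, minus strand, GRCm39), had 1.25, 2.25, 2.20 and 2.20 CPM in TG and 3.76, 2.58, 2.28 and 3.13 CPM in WT. The groups did not overlap, but the highest TG and the lowest WT library differed by little on 20 to 47 counts per library. Its log2 fold change of -0.56 ± 0.26 (SE) had a 95% interval of -1.12 to -0.01 and an edgeR adjusted p of 0.146. Without TG replicate 1, the lowest library, the log2 fold change was -0.39.

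Tlr3, the endosomal receptor of double-stranded RNA (ENSMUSG00000031639, chromosome 8, 45848702 to 45864117, minus strand), had 11.1, 12.9, 10.6 and 10.9 CPM in TG and 10.6, 12.5, 9.84 and 12.7 CPM in WT. These ranges overlapped almost entirely. The fold change was 0.999 with a 95% interval of 0.828 to 1.21 and an edgeR adjusted p of 0.997.

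Tlr4, the lipopolysaccharide receptor (ENSMUSG00000039005, chromosome 4, 66745783 to 66849936, plus strand), was near the limit of detection. It had 0, 1, 4 and 3 counts in TG and 5, 9, 10 and 1 counts in WT. Here 3 counts correspond to 0.185 to 0.229 CPM in total counts, before TMM scaling. Without the filter on low counts Tlr4 had an edgeR adjusted p of 0.145, and with DESeq2 0.187. Its co-receptor genes Cd14 and Ly96, named here after their values were seen, had mean levels of 4.00 and 2.98 CPM in TG and 4.91 and 3.61 CPM in WT.

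Of the cytosolic sensors, Nod2 fell in TG on very few counts, while Nod1 and Nlrp6 were not called. Nod2 (ENSMUSG00000055994, chromosome 8, 89373943 to 89415102, plus strand, GRCm39), the sensor of muramyl dipeptide, had 11, 11, 7 and 12 counts in TG and 19, 18, 23 and 18 counts in WT. This was 0.688, 0.774, 0.395 and 0.912 CPM in TG and 1.52, 1.25, 1.54 and 1.34 CPM in WT, with no overlap. The fold change was 0.485 (95% interval 0.296 to 0.793), or -1.04 ± 0.33 (SE) on the log2 scale, with an edgeR adjusted p of 0.0425. Nod2 passed the filter through its WT libraries, since 4 WT but 3 TG libraries reached the minimum of 0.691 CPM in total counts, before TMM scaling. Without the filter its edgeR adjusted p was 0.0813, so that the call was lost.

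The direction of Nod2 held in all 18 alternative fits, but the call in only 5 of them. DESeq2 gave an adjusted p of 0.0539, the edgeR fit with the replicate block 0.0640 and total counts only 0.103. With each library left out in turn, the call held without TG replicate 4 (edgeR adjusted p 0.0435) and was lost in the other 7 fits, without TG replicates 1, 2 and 3 and WT replicates 1 to 4, at 0.0514 to 0.122. Within the libraries without and with Y-linked counts the log2 fold changes were -0.92 and -1.18, both with an edgeR adjusted p of 0.292. GENCODE places an antisense gene, Gm64159, over 688 exonic bases of Nod2, and the strand setting of the counting is not known.

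**Figure D3:**
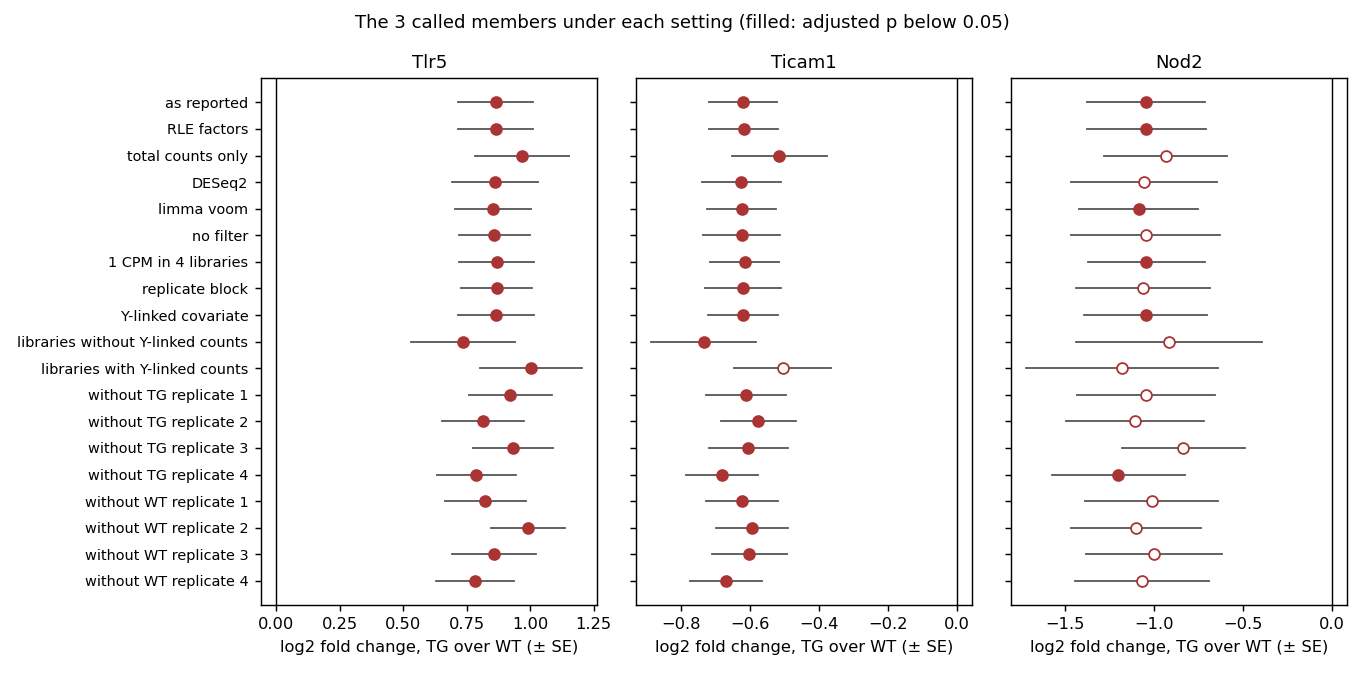
Log2 fold change of Tlr5, Ticam1 and Nod2 (point) with its SE (line) in the reported fit and 18 alternative fits, filled where the adjusted p was below 0.05. Tlr5 was called in all 18 alternatives, Ticam1 in 17 and Nod2 in 5.

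Nod1, the sensor of peptidoglycan from mostly Gram-negative bacteria (ENSMUSG00000038058, chromosome 6, 54900927 to 54949647, minus strand), had 11.0, 12.2, 11.8 and 11.8 CPM in TG and 10.6, 12.3, 13.6 and 10.8 CPM in WT. All TG libraries lay within the range of the WT libraries. Its fold change was 0.988 (95% interval 0.828 to 1.18, edgeR adjusted p 0.932).

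Nlrp6, the most abundant member (ENSMUSG00000038745, chromosome 7, 140500815 to 140509105, plus strand), varied more between libraries than Nod1. It had 77.8, 92.2, 80.9 and 48.5 CPM in TG and 52.3, 57.6, 82.6 and 70.5 CPM in WT, so that the lowest value of all was that of TG replicate 4. This gave a log2 fold change of 0.19 ± 0.20 (SE) and an adjusted p of 0.560 in edgeR. Without TG replicate 4 the log2 fold change was 0.34 (edgeR adjusted p 0.112), and without TG replicate 2 it was 0.07. Within the libraries without Y-linked counts it was 0.63 (edgeR adjusted p 0.0172) and within those with them -0.23 (adjusted p 0.642). The test of the difference between these 2 values gave an edgeR adjusted p of 0.752 and an unadjusted p of 0.0148.

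Of the signalling proteins, Ticam1, which encodes the adaptor TRIF, fell in TG. Ticam1 (ENSMUSG00000047123, chromosome 17, 56576319 to 56583786, minus strand, GRCm39) had 18.1, 16.5, 17.7 and 20.5 CPM in TG and 28.0, 29.6, 29.1 and 25.2 CPM in WT. All WT libraries lay well above the highest TG library. The mean was 18.2 ± 1.70 CPM in TG and 28.0 ± 1.99 CPM in WT (SD, n = 4 each), on 234 to 435 counts per library. The fold change was 0.650 (95% interval 0.562 to 0.753), or -0.62 ± 0.10 (SE) on the log2 scale, with an edgeR adjusted p of 0.00150. The call held in 17 of 18 alternative fits, and in the libraries with Y-linked counts the log2 fold change was -0.51 with an edgeR adjusted p of 0.104.

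Myd88, the adaptor shared by most Toll-like receptors (ENSMUSG00000032508, chromosome 9, 119165000 to 119170486, minus strand), had 17.5, 13.3, 14.3 and 14.3 CPM in TG and 21.9, 17.4, 15.8 and 19.1 CPM in WT. The highest TG library overlapped the lowest WT libraries. Its log2 fold change of -0.32 ± 0.12 (SE) had a 95% interval of -0.58 to -0.05, an unadjusted p of 0.0217 and an edgeR adjusted p of 0.0887. Myd88 was called only in the fit without WT replicate 3 (edgeR adjusted p 0.0494). Acaa1a, a peroxisomal thiolase gene on the opposite strand, shares 628 exonic bases with Myd88 and rose in TG with a log2 fold change of 0.77 (edgeR adjusted p 0.00107), and its part in the Myd88 counts was not tested.

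Ripk2, the kinase downstream of NOD1 and NOD2 (ENSMUSG00000041135, chromosome 4, 16121400 to 16163796, minus strand), had 1.56, 3.45, 2.71 and 2.66 CPM in TG and 2.08, 2.44, 1.94 and 2.60 CPM in WT. The TG libraries spread on both sides of the WT libraries. The fold change was 1.14 with a wide 95% interval of 0.775 to 1.68 and an edgeR adjusted p of 0.646, on 25 to 49 counts per library.

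**Figure D4:**
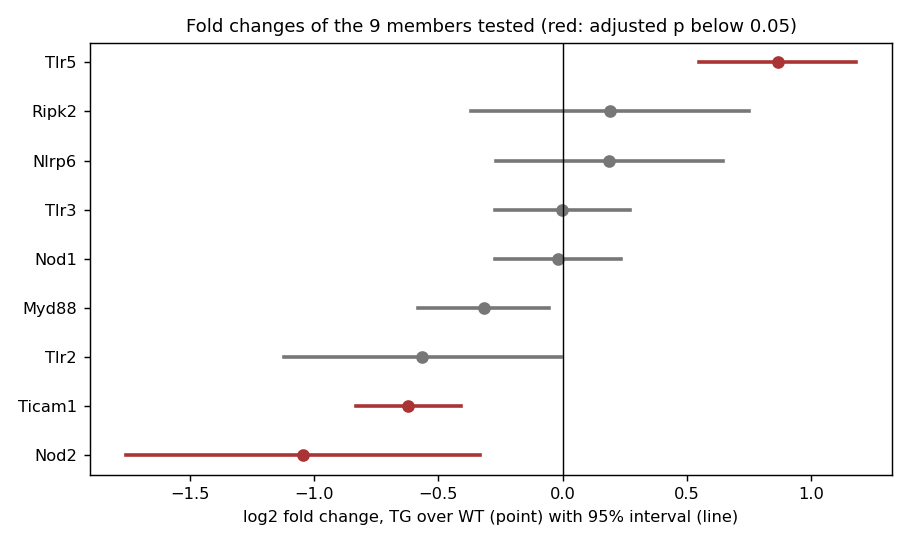
Log2 fold change, TG over WT, of the 9 members tested (point) with its 95% interval (line), red where the adjusted p was below 0.05. The intervals of Tlr3 and Nod1 are narrow around 0, and that of Nod2 reaches from -1.76 to -0.33.

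The pattern over the 8 libraries was compared with that of other tested genes by Pearson's r of log2 CPM, as a description only, since these genes were also counted in the same libraries and differ between the same groups. Closest to Tlr5 were Lancl1 (r = 0.971) and Rapgefl1 (r = 0.955), of 8101 genes compared. Closest to Ticam1 were Eif2b5 (r = 0.984) and Max (r = 0.983), and closest to Nod2 were Cdc27 (r = 0.966) and Hras (r = 0.960).

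Other genes of microbial sensing were examined in 7 lists of 93 genes, of which 70 were tested. In all, 4 rose and 11 fell, which is 21.4% of those tested against 17.9% of all genes. The lists were chosen with earlier results of these data known, so this share is a description only. Over all genes tested, 8.26% were called as higher and 9.65% as lower, which are the shares beside each list below. With total counts only, 3 of the list genes rose and 4 fell. Without TG replicate 1 the number called was 7, and without TG replicate 2 it was 6. With the 4 libraries that had Y-linked counts alone, none of these genes was called.

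Of 8 other Toll-like receptors, Tlr7, Tlr8, Tlr9, Tlr11, Tlr12 and Tlr13 had 0 counts in all libraries. By counting error alone this allows at most 3 counts per library, or 0.229 CPM in total counts, before TMM scaling. Tlr6 was too low to test, with 0.475 CPM in TG and 0.342 CPM in WT. Tlr1, a partner of TLR2, had a log2 fold change of -0.33 ± 0.34 (SE) and an edgeR adjusted p of 0.530.

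Among 10 co-receptors and chaperones, 2 of 5 tested fell, and the median log2 fold change was -0.33 against 0.01 over all genes. Unc93b1, which carries nucleic acid-sensing receptors and TLR5 out of the endoplasmic reticulum, fell from 66.3 ± 7.81 to 47.2 ± 4.94 CPM (SD, n = 4 each), with a log2 fold change of -0.49 and an edgeR adjusted p of 0.00608. With total counts only its adjusted p was 0.104, and in the libraries with Y-linked counts 0.12. Cnpy3, a chaperone of Toll-like receptors, had a log2 fold change of -0.33 and an edgeR adjusted p of 0.0483. Cnpy3 was called in 6 of 18 alternative fits. With each library left out in turn, its call held without WT replicate 1 or 2 and was lost without TG replicate 1, 2, 3 or 4 or WT replicate 3 or 4, at 0.0817 to 0.129. Hsp90b1 (gp96), the most abundant of this list, was not called, with a log2 fold change of -0.38 and an edgeR adjusted p of 0.201.

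In the list of MyD88 and TRIF signalling, 1 of 14 tested genes rose and 4 fell, with a median log2 fold change of -0.14. Tirap, the bridging adaptor that recruits MyD88 to TLR2 and TLR4, fell from 32.4 ± 4.54 to 18.8 ± 1.69 CPM (SD, n = 4 each), with a log2 fold change of -0.79 ± 0.11 (SE) and an edgeR adjusted p of 0.000885. It kept its call in 17 of 18 alternative fits and lost it in the libraries with Y-linked counts (log2 fold change -0.57, adjusted p 0.0734). Ripk1, a kinase that binds TRIF, and Ube2n, a ubiquitin-conjugating enzyme that works with TRAF6, fell by 0.32 and 0.35 on the log2 scale (adjusted p 0.0244 and 0.0287 in edgeR). Irak2, a kinase of the MyD88 complex, rose with a log2 fold change of 0.38 and an edgeR adjusted p of 0.0322. The most abundant gene, the kinase Irak1, was not called (log2 fold change -0.22, edgeR adjusted p 0.0819). Ripk1 was lost without TG replicate 1, TG replicate 2 or WT replicate 1, with adjusted p of 0.0512 to 0.0724. Ube2n was lost without TG replicate 1, 2 or 3 or WT replicate 1, with 0.0558 to 0.0985. Irak2 was lost without TG replicate 1, 2 or 4 or WT replicate 3 or 4, with 0.0560 to 0.0982. With total counts only, Ripk1 had a log2 fold change of -0.20 (edgeR adjusted p 0.318) and Ube2n of -0.23 (0.276). Irak2 kept its call there (edgeR adjusted p 0.0386) and lost it with no filter (0.0562).

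In the list of NOD signalling and peptide transport, 1 of 15 tested genes rose and 1 fell, with a median log2 fold change of 0.00. The ubiquitin ligases Xiap, Birc2, Birc3 and Rnf31 and the autophagy gene Atg16l1, which act with NOD2 and RIPK2 and were chosen here after their values were seen, had log2 fold changes of -0.13 to 0.16 and were not called. Slc15a1, the peptide transporter PEPT1 of the enterocyte brush border, rose from 0.322 ± 0.299 to 2.07 ± 1.74 CPM (SD, n = 4 each), with a log2 fold change of 2.61 and an edgeR adjusted p of 0.0374, beside enterocyte markers that were higher in TG, whose part in this was not tested. Slc15a1 passed the filter through TG, the group where it is high. There 4 TG and 0 WT libraries reached the minimum of 0.691 CPM in total counts, before TMM scaling. Slc15a1 was called in 9 of 17 alternative fits, among them the fit with no filter. It was lost with limma voom (adjusted p 0.0644) and in the libraries without and with Y-linked counts (edgeR adjusted p 0.209 and 0.121). Without TG replicate 4 its log2 fold change was 1.89. Its call was lost without TG replicate 2 or 4 or WT replicate 1, 3 or 4, with adjusted p of 0.0533 to 0.0922. Nlrx1, a mitochondrial relative of the NOD proteins, fell with a log2 fold change of -0.57 and an edgeR adjusted p of 0.0315. It was lost without TG replicate 1, 2 or 4 or WT replicate 1, with 0.0687 to 0.0905, and without WT replicate 1 the log2 fold change was -0.37. The most abundant gene of the list, the scaffold Erbin, was not called (log2 fold change 0.16, edgeR adjusted p 0.242).

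Of 14 inflammasome genes tested, 1 rose and 2 fell, with a median log2 fold change of -0.01. Casp4, the caspase that binds cytosolic lipopolysaccharide, fell from 12.7 ± 4.63 to 5.70 ± 0.855 CPM (SD, n = 4 each), with a log2 fold change of -1.14 ± 0.23 (SE) and an edgeR adjusted p of 0.00660. In the libraries without Y-linked counts its log2 fold change was -1.55, and in those with them it was -0.60 and not called (edgeR adjusted p 0.195). Pycard, the adaptor of NLRP6, and Casp1, both named after their values were seen, had log2 fold changes of 0.06 and 0.01 and were not called. Dhx15, an RNA helicase described as a partner of NLRP6, fell with a log2 fold change of -0.32 (edgeR adjusted p 0.0176). Naip1, of the flagellin and secretion system sensor family, rose with a log2 fold change of 0.61 (edgeR adjusted p 0.0333), whereas Naip5 and Naip6, which bind flagellin and were named after their values were seen, had -0.04 and -0.19 and were not called. The Naip genes are similar in sequence, and how reads shared between them were counted is not known, so their single values are uncertain. Without TG replicate 1 or 2, Dhx15 had adjusted p of 0.0515 to 0.0818. Without TG replicate 2 or 3 or WT replicate 1 or 2, Naip1 had 0.0527 to 0.113. With total counts only, Dhx15 had a log2 fold change of -0.21 (edgeR adjusted p 0.250) and Naip1 of 0.72 (0.0579). In the libraries without Y-linked counts their edgeR adjusted p were 0.0716 and 0.0921. Dhx9, with the highest CPM of the list, had a log2 fold change of -0.12 (edgeR adjusted p 0.295). Per kb of exon Nlrc4 was above it, with 17.4 against 14.1 CPM per kb. Nlrc4 had a log2 fold change of 0.20 and was not called (edgeR adjusted p 0.171).

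Of 12 sensors and mediators for cytosolic RNA and DNA, 1 rose and 2 fell, with a median log2 fold change of -0.10. Sting1, the adaptor of cytosolic DNA sensing, fell from 25.3 ± 6.02 to 12.6 ± 1.25 CPM (SD, n = 4 each), with a log2 fold change of -0.99 ± 0.16 (SE) and an edgeR adjusted p of 0.00181, against -0.71 and an adjusted p of 0.0882 in the libraries with Y-linked counts. Zbp1, a sensor of Z-form nucleic acids, had a log2 fold change of -0.81 (edgeR adjusted p 0.00269). It was -1.15 in the libraries without Y-linked counts (adjusted p 0.00198) and -0.45 in those with them, where the call was lost (adjusted p 0.200). Trim25, a ubiquitin ligase of the RIG-I pathway and the most abundant of the list, rose with a log2 fold change of 0.39 (edgeR adjusted p 0.0166). Without TG replicate 1 or 2 the adjusted p of Trim25 was 0.0622 to 0.0641. Tbk1 and Irf3, which act downstream of TRIF and were likewise named afterwards, had log2 fold changes of -0.14 and 0.01 and were not called. Of 9 negative regulators tested, none passed in the reported edgeR fit (0, and 2 by unadjusted p at a threshold of 0.05). DESeq2 and limma voom called 1 each, edgeR with no filter or with the replicate block called 2, and edgeR without WT replicate 1 or WT replicate 4 called 1 and 2. The 2 by unadjusted p were Usp18 and Nlrc5, with log2 fold changes of -1.40 and -1.28 (edgeR adjusted p 0.0612 and 0.0614). They had at most 31 and 73 counts per library. Tax1bp1, the most abundant of the negative regulators, had a log2 fold change of -0.16.

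**Figure D5:**
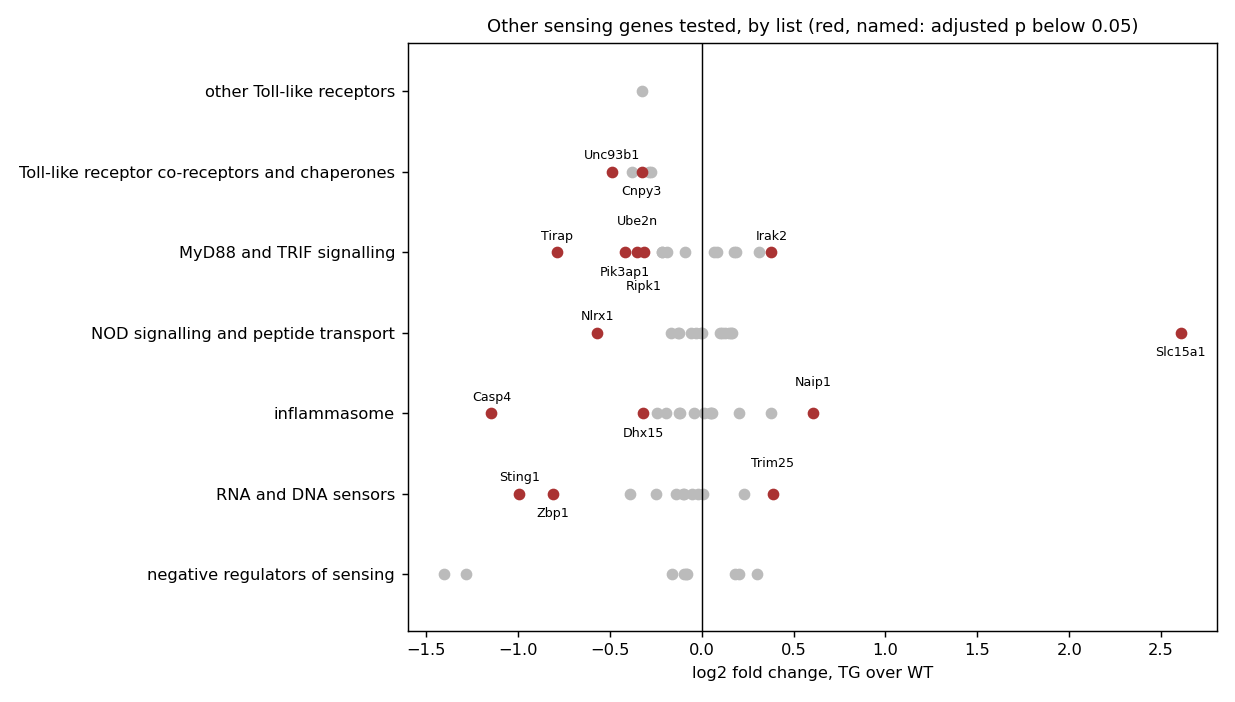
Log2 fold change, TG over WT, of 70 tested genes in 7 lists of microbial sensing, 1 point per gene, red and named where the adjusted p was below 0.05. Of these, 4 were higher and 11 lower in TG, with called genes from -1.14 (Casp4) to 2.61 (Slc15a1, which passed the filter on low counts through TG alone).

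Toll-like receptors are well known from leukocytes, so leukocyte markers were examined beside them. Of 20 listed, 1 (Lyz2) passed the filter. Without Lyz2, a near-identical copy of the Paneth gene Lyz1, the other 19 summed to 0.985 to 2.65 CPM in TG and 0.400 to 1.95 CPM in WT. Of the 20, 9 were at 0 in all libraries, among them Adgre1 and Csf1r of macrophages and Tyrobp. Others held counts, with totals over all 8 libraries of 60 for Cd68, 49 for Itgam and 37 for Ptprc. The 12 stromal and endothelial markers summed to 0.915 to 1.60 CPM in TG and 1.04 to 1.49 CPM in WT. With Lyz2 the leukocyte sum was 9.76 to 30.6 CPM in TG and 12.4 to 19.3 CPM in WT. Without it, Tlr5 and Ticam1 lay above the leukocyte and stromal sums, Nod2 (0.395 to 1.54 CPM) was at levels like theirs and Tlr2 and Ripk2 were close to them. The part of such cells in the members' values was not tested.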

How the data were processed

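RNA-seq of sorted mouse Paneth cells was analysed in 8 libraries, 4 TG and 4 WT, grouped by their labels. The values the authors deposited are raw counts, 1 whole number per Ensembl gene and library, with no rows for unassigned reads. Per the labels, the build was mm39 and the tools included FastQC 0.12.0, STAR 2.7.0a and DESeq2. Neither the counting tool nor its strand setting is named in the sources used here. Symbols, positions and exon lengths came from GENCODE M39 on GRCm39, which matched 54749 IDs and left 665 unmatched.

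Counts were tested with edgeR 4.0.16 in R 4.3.3 (TMM factors, robust quasi-likelihood fits, the default filter at 10 counts, group as the only term), and p-values were Benjamini-Hochberg adjusted over the 11929 genes tested. A gene was called at an adjusted p below 0.05. CPM values are counts scaled to 1000000 per library and by TMM factors, and levels per kb use total counts and merged exons. Standard errors were taken from the log2 fold change and its F statistic. The steps were tested on simulated data. Total counts were 13107397 to 16218434 per library, where 3 counts correspond to 0.185 to 0.229 CPM before TMM scaling.

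The alternatives were DESeq2 1.42.0, limma 3.58.1 voom, RLE factors, total counts only, 2 other filters, a replicate block, a Y-linked covariate, the libraries without and with Y-linked counts, and each library left out in turn. The members and gene lists were chosen with earlier results of these data known. Named from the other lists were the called genes, at most 3 per direction, and the most abundant gene by CPM. For each called member, 2 genes of the closest pattern were named, from genes with a mean log2 CPM of at least 3 outside the Defa family. Same-numbered libraries of the groups had correlations of 0.0762, 0.0666, 0.286 and 0.231 (replicates 1 to 4) between their deviations from the group means. The highest correlation of each TG library with a WT library of another number was 0.235, 0.0745, -0.00383 and 0.0203. The own number was thus closest for replicates 3 and 4 only. The numbers were not taken as pairs, and the replicate block was run as an alternative. Nothing in the labels says that they mark a shared litter or day.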

Additional observations from a re-analysis of the deposited data

Results flagged for a closer look

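The 10 members gave 20 groups of 4 libraries, and in 1 of them a library stood apart from the other 3 by Dixon's criterion, where chance flags about 1 in 20. In the TG group, replicate 1 was low for Tlr2 (1.25 CPM against 2.20 to 2.25 CPM in replicates 2, 3 and 4), a gap of 0.950 of the whole range. For the 9 members tested, no difference in the TG effect between libraries without and with Y-linked counts passed an adjusted p of 0.05 in edgeR, with 1 (Nlrp6) at an unadjusted p below 0.05.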

How the results depend on the processing

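Tlr5 and Ticam1 kept their direction in all 18 alternative fits, and Nod2 did so with its call in 5. Members called, 3 in number, became 1 with the libraries with Y-linked counts alone and 2 to 3 when 1 library was left out. The cause was not tested. The 2136 genes called over all genes became 1049 with total counts only (787 higher and 262 lower, with the median of all genes at 0.12), 1138 in libraries lacking Y-linked counts, 217 in libraries that had them, and 1055 to 2228 when 1 library was left out (1055 without TG replicate 2 and 1083 without TG replicate 1). The 15 other sensing genes called became 7 with total counts only, 7 in libraries lacking Y-linked counts and 0 in the others, and 6 to 14 when 1 library was left out. Values near 0 changed sign. Nod1 had a log2 fold change of 0.0859 with total counts only, 0.0137 in the libraries without Y-linked counts and -0.0674 to 0.0538 when 1 library was left out. Tlr3 had 0.12 with total counts only, 0.00055 with limma voom, 0.0033 with the filter of 1 CPM in 4 libraries, 0.00497 with the replicate block, 0.0516 in the libraries without Y-linked counts and -0.0689 to 0.0510 when 1 library was left out. Nlrp6 had -0.23 in the libraries with Y-linked counts. With the longest transcript, 6 of 10 members kept their place in the order of levels. With the replicate block, 2 members, 16 other sensing genes and 2203 genes in all were called, Nod2 and Cnpy3 being lost at adjusted p of 0.0640 and 0.0596. Depth limits Nod2 (7 to 23 counts per library), Tlr4 (0 to 10), Tlr2 and Ripk2 most.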
